A study of Mus musculus with 10 samples.

Results

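In the left ventricle (LV), 5 nAAC and 5 sham mice were compared for 39 genes of antioxidant defence and of oxidant production, which were chosen by name. They comprise the sensor pair Nfe2l2 and Keap1, Hmox1, 15 glutathione genes, 12 thioredoxin and peroxiredoxin genes, 4 dismutase and catalase genes, the metallothioneins Mt1 and Mt2, the NADPH oxidase subunits Cybb and Cyba, and Ucp2. All 39 were found among the 55401 genes of the deposited tables, and 38 had a mean of at least 1 FPKM (a level that corrects the fragments of a gene for its length and for sequencing depth) and were tested among 11867 genes. Slc7a11 alone fell below this level. All mice were wild type (WT), bred on a C57BL/6 background from parents heterozygous for an Ahr deletion as the study's methods describe, and were sampled at 4 weeks of age. In nAAC (neonatal ascending aortic constriction) mice the aorta had been narrowed surgically in the newborn, so that the LV grew under pressure overload, and sham mice underwent a sham operation. Each library came from the LV of 1 mouse, as bulk tissue. In such samples a lower number of cells of a type and less RNA per cell cannot be told apart.

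Oxygen-using cells generate superoxide and hydrogen peroxide, mainly at the mitochondrial respiratory chain and through NADPH oxidases. Superoxide dismutases turn superoxide into hydrogen peroxide, and catalase breaks the peroxide down to water and oxygen. The glutathione peroxidases and the peroxiredoxins reduce it instead, with electrons that come largely from NADPH through glutathione or thioredoxin. Many of these genes are induced by the transcription factor NRF2, encoded by Nfe2l2, when its inhibitor KEAP1 is oxidized, and the heart, rich in mitochondria, depends on this network.

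Aligned sequence was estimated at 4.86 to 6.82 gigabases per nAAC library and 5.06 to 5.24 per sham library. The lowest value of the cardiomyocyte gene Myh6 in any library was 1312 FPKM, which matches heart muscle without telling its chamber. The atrial genes Myl7, Sln and Myl4 summed to 2.03 to 227 FPKM in nAAC mice and 3.05 to 44.7 in sham mice. Myl7 was highest in nAAC replicates 2 and 3, at 54.0 and 79.8 FPKM, and at most 22.3 in sham mice. The part of atrial tissue in the member values was not tested. The median log2 fold change (FC) of all tested genes was 0.22 in FPKM as deposited, so directions were also read after median-ratio scaling, which brings this median to -0.001. Sham replicate 4 stood apart. It lay at -45.2 on the second principal component, where the other libraries lay between -15.1 and 21.1, and its deviation from the other sham mice fell with transcript length across genes (Spearman correlation -0.66, against -0.02 to 0.47 in the other sham libraries). Among the tested members it had the highest sham value in 30 of 38, and its median deviation over the members was 0.55 on the log2 scale, against 0.07 over all genes. Xist, the RNA that silences an X chromosome in female cells, was between 14.8 and 17.9 FPKM in 4 nAAC mice and 0.0232 in nAAC replicate 2, and among sham mice it was 3.696 in replicate 4, 10.6 in replicate 5 and at most 0.0168 in the others. The labels do not give the sex of the mice.

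**Figure D1:**
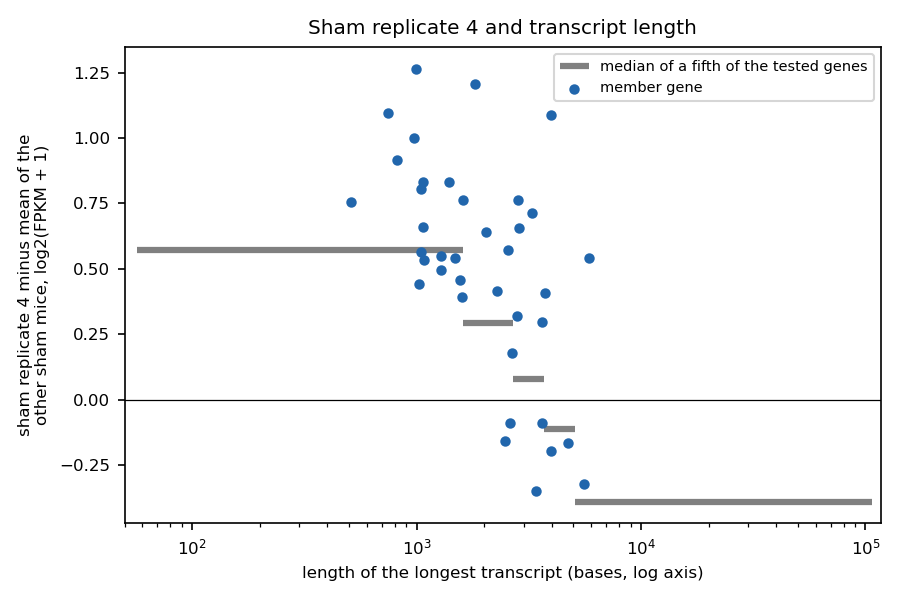
Deviation of sham replicate 4 from the average of the remaining sham mice on log2(FPKM + 1), against the length of the longest transcript in bases (log axis). Blue points are the 38 tested member genes and grey bars the medians of 5 equal groups of all tested genes, which fall from 0.57 in the shortest group, where 18 members lie, to -0.39 in the longest.

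Of the 38 tested members, 13 were higher and 2 lower in nAAC mice at an adjusted p below 0.05, and 23 did not pass. Over all tested genes 27.1% were higher and 4.6% lower, so the members' shares of 34.2% and 5.26% lay near this background. The higher genes were Hmox1, Gclc, Gss, Gsr, Gpx1, Gpx3, Gpx7, Gpx8, Txnrd1, Srxn1, Sod3, Mt1 and Mt2, and the lower genes were Gstk1 and Txnip. With the further requirement of an absolute log2 FC above 1, DEGs (differentially expressed genes) were Gpx3, Srxn1, Sod3 and Mt2 on the higher side and Gstk1 and Txnip on the lower, against 5.01% and 0.893% of all tested genes. In 10 members all nAAC values exceeded the highest sham value and in 2 all fell below the lowest, where 18.9% and 3.46% of all tested genes did so. After median-ratio scaling 8 members were higher and 7 lower, with backgrounds of 13.2% and 12.1%. Gpx1, Gpx3, Gpx8, Txnrd1, Srxn1, Sod3, Mt1 and Mt2 on the higher side, and Gstk1 and Txnip on the lower, passed at this threshold in each of the 20 other fits made for single genes. Hmox1, Gclc, Gss, Gsr and Gpx7 no longer passed after median-ratio scaling or with Xist as a covariate. Without sham replicate 4 there were 14 higher and 2 lower members, the added gene being Gpx4. Over all 11867 tested genes this fit gave 3930 higher and 621 lower, so the background rose as well.

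**Figure D2:**
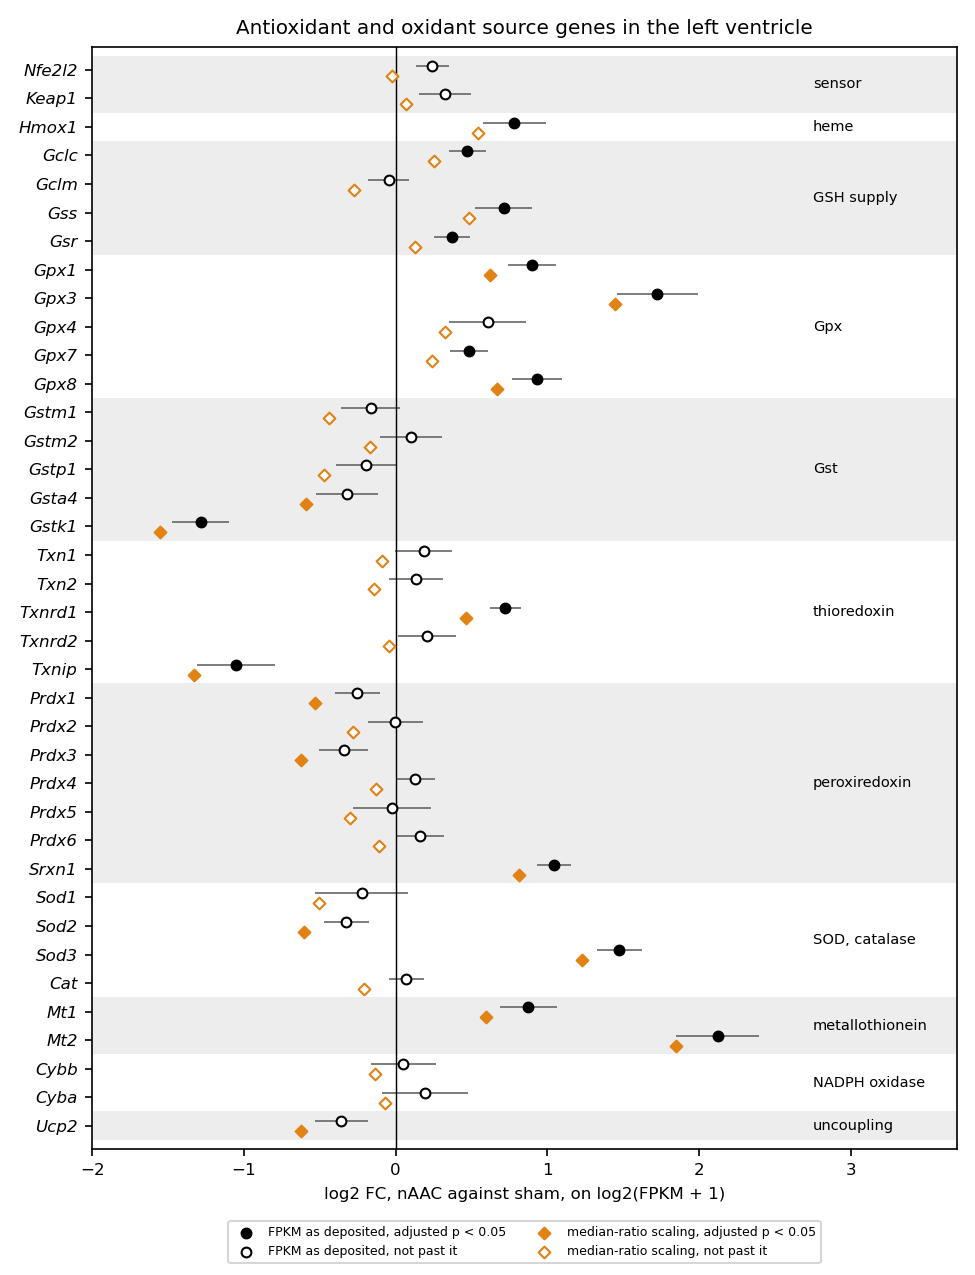
The log2 FC of the 38 tested members in nAAC against sham mice on log2(FPKM + 1), grouped by role. Circles with bars are FPKM as deposited with the standard error, diamonds are median-ratio scaled values, and filled symbols passed an adjusted p of 0.05; 13 members lie higher and 2 lower as deposited, and 8 and 7 after scaling.

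The sensor pair itself did not pass the test. Nfe2l2 was 23.3, 19.03, 19.5, 22.8 and 20.2 FPKM in nAAC mice and 16.6, 19.7, 18.1, 15.98 and 17.4 in sham mice, in the order of the replicate numbers as for all values by mouse below, a log2 FC of 0.24 (SE 0.11, adjusted p = 0.108). Keap1, whose product holds NRF2 for degradation, was 10.6, 12.7, 11.9, 16.1 and 12.1 in nAAC mice and 10.1, 6.93, 8.07, 11.8 and 13.7 in sham mice (log2 FC 0.32, adjusted p = 0.166). The groups overlapped in both genes, and after median-ratio scaling the log2 FC was -0.025 for Nfe2l2 and 0.067 for Keap1. With TPM (FPKM rescaled to the same total in every library) in place of FPKM, Nfe2l2 passed on the higher side (log2 FC 0.41, adjusted p = 0.0207), the only fit in which it did, and Keap1 passed in none. Hmox1, the inducible heme oxygenase that degrades heme, was 8.43, 4.39, 10.8, 11.9 and 7.62 in nAAC mice and 4.41, 3.95, 3.58, 5.91 and 4.22 in sham mice. Its nAAC values were higher as a group, although nAAC replicate 2 lay within the sham range (log2 FC 0.78, SE 0.21, adjusted p = 0.0126). Hmox1 no longer passed after median-ratio scaling (log2 FC 0.54, adjusted p = 0.060), and the constitutive Hmox2 had a log2 FC of 0.26 (adjusted p = 0.209).

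Of the 5 genes of glutathione supply, Gclc, Gss and Gsr were higher, Gclm did not pass, and Slc7a11 was not tested. Gclc, the catalytic subunit of glutamate cysteine ligase, which makes the first bond of glutathione, was 4.898, 4.13, 3.71, 5.03 and 4.15 in nAAC mice and 3.35, 2.55, 3.28, 2.18 and 3.11 in sham mice, with no overlap (log2 FC 0.47, SE 0.12, adjusted p = 0.0101). Gclm, the modifier subunit of the same enzyme, was 4.32, 4.28, 3.28, 6.04 and 4.096 in nAAC mice and 4.76, 4.73, 4.82, 3.595 and 4.700 in sham mice. Its nAAC values lay on both sides of the sham values, which were close together except for a low value in sham replicate 4 (log2 FC -0.045, SE 0.13, adjusted p = 0.821). Gss, glutathione synthetase, was 7.16, 7.89, 7.71, 6.69 and 5.87 in nAAC mice and 3.49, 2.37, 3.18, 6.29 and 5.17 in sham mice, where only sham replicate 4 reached into the nAAC range (log2 FC 0.71, SE 0.19, adjusted p = 0.0115). Gss overlaps Acss2 on the opposite strand and Gclm overlaps Gm17494, at means of 10.4 and 14.7 FPKM, and the use of strand was not given in the sources used here. Gsr, which returns oxidized glutathione to its reduced form, was 6.27, 7.19, 7.51, 8.56 and 6.64 in nAAC mice and 5.796, 4.52, 4.58, 6.001 and 5.97 in sham mice. Every nAAC value exceeded every sham value, by a small margin (log2 FC 0.37, SE 0.12, adjusted p = 0.030). The adjusted p of Gsr ran from 0.0570 to 0.0808 when nAAC replicate 2, 3 or 4 or sham replicate 2 or 3 was left out, with log2 FCs of 0.32 to 0.37. After median-ratio scaling none of the 3 higher genes passed, at log2 FCs of 0.25, 0.48 and 0.13. Slc7a11, the cystine importer, was at most 0.0404 FPKM in any mouse.

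Of the 5 glutathione peroxidases 4 were higher. Gpx3 (ENSMUSG00000018339; chr11:54902453-54910377 of GRCm38, as all gene positions below), the peroxidase secreted into plasma and extracellular fluid, was 334, 202, 386, 172 and 146 in nAAC mice and 76.2, 50.03, 58.1, 86.1 and 82.7 in sham mice. The groups were well separated, and nAAC replicates 1 and 3 were higher than the rest of their group. The mean was 3.51 times that of sham mice (log2 FC 1.72, SE 0.27, adjusted p = 0.000362). Gpx1 (ENSMUSG00000063856; chr9:108338903-108340343), the abundant peroxidase of cytosol and mitochondria, was 108, 93.7, 109, 88.4 and 89.3 in nAAC mice and 52.7, 42.7, 44.8, 75.04 and 48.9 in sham mice. Sham replicate 4 came nearest to the nAAC range without entering it (log2 FC 0.90, SE 0.16, adjusted p = 0.000944). The peroxidases of the endoplasmic reticulum, Gpx7 and Gpx8, were higher too. Gpx8 (ENSMUSG00000021760; chr13:113042753-113046410) was 16.4, 22.9, 28.2, 23.00 and 21.6 in nAAC mice and 8.996, 11.3, 10.9, 15.6 and 9.72 in sham mice, with no overlap (log2 FC 0.93, SE 0.16, adjusted p = 0.000931). Gpx7 was 7.46, 6.65, 7.697, 8.702 and 8.06 in nAAC mice and 4.72, 4.45, 4.97, 7.18 and 5.11 in sham mice, where sham replicate 4 lay within the nAAC range (log2 FC 0.48, SE 0.13, adjusted p = 0.0113), and it did not pass after median-ratio scaling (log2 FC 0.24). Gpx4, which reduces lipid peroxides in membranes, was 343, 397, 441, 378 and 357 in nAAC mice and 225, 169.8, 183, 506 and 278 in sham mice. The nAAC values exceeded those of the other 4 sham mice and lay below that of sham replicate 4 (log2 FC 0.61, SE 0.25, adjusted p = 0.0842), and without this mouse the log2 FC was 0.86 (adjusted p = 0.00126). With all mice kept, Gpx4 passed with TPM (adjusted p = 0.0290) and with FPKM rescaled without mitochondrial genes (0.0361). It did not pass after median-ratio scaling (log2 FC 0.33, adjusted p = 0.344) or with Xist as a covariate (0.38, adjusted p = 0.421). The pseudogene Gpx4-ps2 had a mean of 104.7 FPKM in these tables, and how reads were divided between the copies was not given in the sources used here.

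The glutathione transferases, which conjugate glutathione to electrophiles, did not share this direction. Gstk1 (ENSMUSG00000029864; chr6:42245935-42250447), the kappa class enzyme of mitochondria and peroxisomes, was 14.98, 19.2, 17.4, 15.9 and 20.9 in nAAC mice and 40.3, 34.3, 35.1, 70.7 and 49.04 in sham mice. All nAAC values lay below all sham values, and sham replicate 4 was the highest of its group (log2 FC -1.28, SE 0.19, adjusted p = 0.000229). Without that mouse the log2 FC was -1.12. The cytosolic Gstm1, Gstm2, Gstp1 and Gsta4 overlapped between the groups, with log2 FCs of -0.16, 0.10, -0.19 and -0.32 and adjusted p of 0.24 or more. Gsta4, which detoxifies the lipid peroxidation product 4-hydroxynonenal, was 21.1 to 29.3 FPKM in nAAC mice and 24.3 to 58.7 in sham mice, and passed on the lower side after median-ratio scaling (log2 FC -0.59, adjusted p = 0.0295). Near-identical members of the Gstm and Gstp clusters can share reads, and Gstm2-ps1 had a mean of 3.97 FPKM.

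In the thioredoxin system the cytosolic reductase rose, the inhibitor fell and the thioredoxins did not pass. Txnrd1 (ENSMUSG00000020250; chr10:82833951-82897712), which reduces thioredoxin with NADPH, was 16.4, 18.04, 15.4, 18.8 and 15.6 in nAAC mice and 9.56, 9.72, 9.58, 9.25 and 10.8 in sham mice. The sham values were within a narrow range, sham replicate 4 included, and all nAAC values exceeded them (log2 FC 0.72, SE 0.10, adjusted p = 0.000186). Txnip (ENSMUSG00000038393; chr3:96557957-96561883), which binds and inhibits thioredoxin and responds to glucose, was 126, 84.4, 65.2, 80.2 and 118 in nAAC mice and 189.8, 129, 137, 293 and 264 in sham mice. All nAAC values lay below all sham values, though nAAC replicate 1 and sham replicate 2 were close (log2 FC -1.05, SE 0.26, adjusted p = 0.00757). The cytosolic Txn1 was 35.8 to 58.1 FPKM in nAAC mice and 32.1 to 62.5 in sham mice (log2 FC 0.18) and the mitochondrial Txn2 was 77.5 to 99.7 FPKM in nAAC mice and 58.7 to 117 in sham mice (log2 FC 0.13). Txnrd2, the mitochondrial reductase, had a log2 FC of 0.21 (adjusted p = 0.422).

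Among the peroxiredoxin genes only Srxn1, which repairs overoxidized peroxiredoxins of the typical kind (Prdx1 to Prdx4), passed. Srxn1 (ENSMUSG00000032802; chr2:152105516-152111376) was 8.25, 7.92, 9.12, 7.23 and 7.73 in nAAC mice and 3.19, 2.89, 3.08, 4.24 and 3.64 in sham mice. The groups did not overlap, the highest sham value being that of sham replicate 4, and the mean was 2.36 times that of sham mice (log2 FC 1.04, SE 0.11, adjusted p = 1.8e-05). None of the peroxiredoxins themselves passed. The cytosolic Prdx1, Prdx2 and Prdx6 had log2 FCs of -0.25, -0.0017 and 0.16, the mitochondrial Prdx3 and the mitochondrial and peroxisomal Prdx5 had -0.34 and -0.023, and Prdx4 of the endoplasmic reticulum had 0.13, with adjusted p of 0.117 or more. Sham replicate 4 was the highest sham mouse in all 6, at 237 FPKM for Prdx5 where the others lay between 83.4 and 144. After median-ratio scaling Prdx1 (log2 FC -0.53, adjusted p = 0.0244) and Prdx3 (-0.62, adjusted p = 0.00564) passed on the lower side. Prdx2 and Prdx5 overlap Rnaseh2a and Trmt112, at means of 4.37 and 10.1 FPKM.

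Srxn1, Txnrd1 and Gclm are known targets of NRF2, which binds antioxidant response elements. The letters TGACNNNGC were searched on both strands in RefSeq promoters of GRCm38.p6, from 250 bases before to 50 after the annotated start, with N for any base. They occurred in 8 of the 33 members with a promoter in the set, namely Gclm, Mt2, Nfe2l2, Prdx1, Sod1, Srxn1, Txnrd1 and Ucp2, and in 13.99% of 27025 genes. The similar letters TGAGTCAGC, with G in place of the C, stand in the promoters of Srxn1 and Gstp1 and were not counted as a match. The promoters of Srxn1 (chr2:152105274-152105573, plus strand, match at position 29), of the second of 3 annotated starts of Txnrd1 (chr10:82858956-82859255, plus strand, match at -92) and of Gclm (chr3:122245307-122245606, plus strand, match at -134) are shown because the first 2 genes rose and Gclm, which holds the same letters, did not pass. Positions count from the annotated start and capitals mark the match, which is a description and not a site.
Srxn1: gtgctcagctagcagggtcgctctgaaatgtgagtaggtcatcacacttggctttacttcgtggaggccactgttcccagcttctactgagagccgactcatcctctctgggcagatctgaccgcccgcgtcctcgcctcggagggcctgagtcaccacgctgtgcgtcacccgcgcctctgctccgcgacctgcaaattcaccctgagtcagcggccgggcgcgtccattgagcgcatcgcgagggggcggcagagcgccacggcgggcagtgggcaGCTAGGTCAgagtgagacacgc
Txnrd1: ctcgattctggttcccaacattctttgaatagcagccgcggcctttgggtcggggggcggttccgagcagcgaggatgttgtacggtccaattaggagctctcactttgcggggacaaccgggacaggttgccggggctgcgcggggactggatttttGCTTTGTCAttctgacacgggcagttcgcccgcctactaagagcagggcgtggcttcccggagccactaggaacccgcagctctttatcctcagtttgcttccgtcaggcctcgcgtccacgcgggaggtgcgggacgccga
Gclm: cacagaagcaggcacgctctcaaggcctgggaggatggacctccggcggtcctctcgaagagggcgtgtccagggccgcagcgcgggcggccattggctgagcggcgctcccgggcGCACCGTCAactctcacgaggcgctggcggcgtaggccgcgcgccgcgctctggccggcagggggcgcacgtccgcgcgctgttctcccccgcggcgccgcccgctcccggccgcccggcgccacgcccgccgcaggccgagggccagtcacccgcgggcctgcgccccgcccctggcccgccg

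Among the dismutases only the extracellular Sod3 passed. Sod3 (ENSMUSG00000072941; chr5:52363791-52371418) was 14.8, 10.7, 15.1, 15.8 and 14.4 in nAAC mice and 4.57, 3.56, 3.402, 5.803 and 5.16 in sham mice. Every nAAC value was above every sham value, with nAAC replicate 2 the lowest of its group, and the mean was 3.15 times that of sham mice (log2 FC 1.47, SE 0.15, adjusted p = 1.07e-05). The cytosolic Sod1 was 73.9, 198, 171, 162 and 133 in nAAC mice and 103, 129.7, 137, 300.4 and 213 in sham mice. Both groups spread widely, with nAAC replicate 1 the lowest and sham replicate 4 the highest of all mice (log2 FC -0.22, SE 0.31, adjusted p = 0.597). The mitochondrial Sod2 was 43.7, 60.3, 49.99, 60.01 and 52.6 in nAAC mice and 58.8, 62.03, 61.6, 90.3 and 64.6 in sham mice, where the groups overlapped (log2 FC -0.33, SE 0.15, adjusted p = 0.109), and it passed on the lower side after median-ratio scaling (log2 FC -0.60, adjusted p = 0.00374). Catalase, Cat, was 58.8 to 66.2 FPKM in nAAC mice and 55.8 to 70.7 in sham mice (log2 FC 0.069, adjusted p = 0.662), and after that scaling it had a log2 FC of -0.21.

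**Figure D3:**
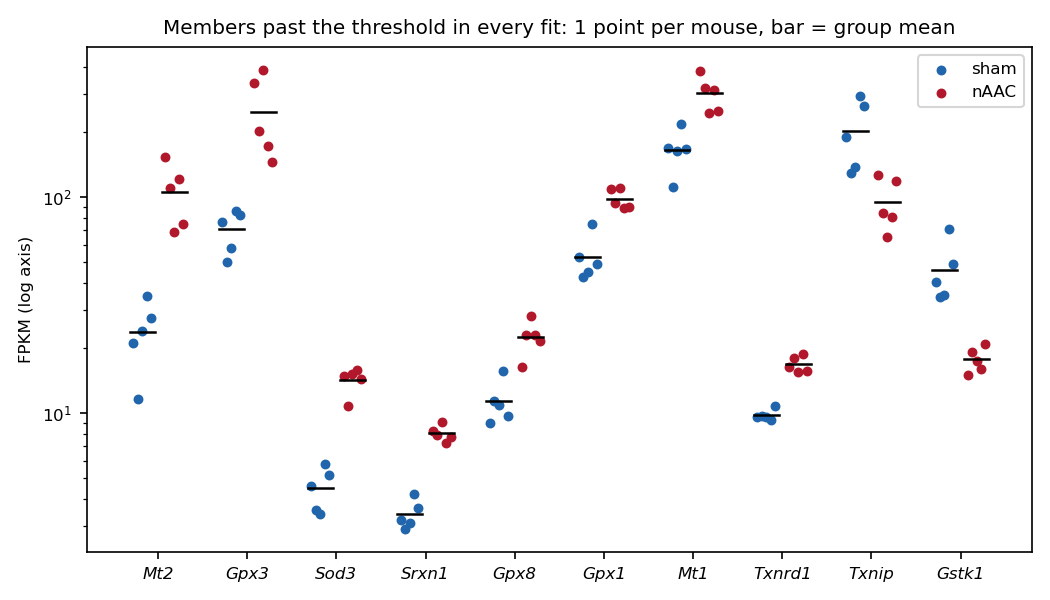
FPKM (log axis) in each mouse for the 10 members that passed in every fit, with 1 point per mouse and a bar at the group mean. The nAAC mice lie above all sham mice in 8 genes, from Mt2 to Txnrd1, and below them in Txnip and Gstk1.

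Both metallothioneins, small cysteine-rich proteins that bind zinc and copper and scavenge oxidants, were higher. Mt2 (ENSMUSG00000031762; chr8:94172664-94173568) was 153, 110.0, 68.6, 120.4 and 75.1 in nAAC mice and 20.97, 11.7, 23.9, 34.6 and 27.5 in sham mice. Sham replicate 4 was the highest of its group and still below the lowest nAAC mouse, and the mean was 4.44 times that of sham mice (log2 FC 2.12, SE 0.28, adjusted p = 9.17e-05). Mt1 (ENSMUSG00000031765; chr8:94179082-94180327), which lies 5514 bases downstream, was 384, 319, 245, 314 and 248 in nAAC mice and 168, 112, 163, 218 and 167 in sham mice, without overlap (log2 FC 0.88, SE 0.19, adjusted p = 0.00361). Their promoters are shown because these neighbours rose together. The letters TGCGCNC or TGCACNC, the core of metal response elements, were searched on both strands and occurred in 10 of the 33 members with a promoter and in 28.2% of 27025 genes. In Mt2 (chr8:94172368-94172667, plus strand) they lay at -223, -128, -50 and 5, and in Mt1 (chr8:94178839-94179138, plus strand) at -23, 3 and 21, as marked in capitals. The deposited gene position of Mt2 begins at 94172664, after all of its matches, that at 5 included. Mt2 also holds TGACNNNGC at -79, which is not capitalized here.
Mt2: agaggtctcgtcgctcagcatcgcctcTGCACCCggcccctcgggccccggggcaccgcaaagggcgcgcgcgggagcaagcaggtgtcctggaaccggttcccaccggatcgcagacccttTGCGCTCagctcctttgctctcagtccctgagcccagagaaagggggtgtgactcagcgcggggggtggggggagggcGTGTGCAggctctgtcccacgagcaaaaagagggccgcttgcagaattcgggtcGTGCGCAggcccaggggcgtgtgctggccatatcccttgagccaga
Mt1: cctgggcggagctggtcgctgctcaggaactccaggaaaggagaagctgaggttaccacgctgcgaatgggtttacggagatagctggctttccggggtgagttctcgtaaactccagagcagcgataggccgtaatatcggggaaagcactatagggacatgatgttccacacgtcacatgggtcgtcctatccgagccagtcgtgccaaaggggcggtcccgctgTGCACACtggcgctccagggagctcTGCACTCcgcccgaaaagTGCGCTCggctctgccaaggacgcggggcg

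The oxidant sources among the members did not pass. Cybb, the catalytic subunit of the phagocyte NADPH oxidase, was 2.93, 1.104, 1.23, 2.97 and 2.78 in nAAC mice and 1.17, 2.38, 2.57, 1.71 and 2.27 in sham mice, at low levels in both groups (log2 FC 0.051, SE 0.21, adjusted p = 0.873). Cyba, the membrane partner of several NADPH oxidases, was 12.8, 19.9, 20.6, 25.5 and 22.4 in nAAC mice and 13.6, 9.84, 13.3, 32.3 and 25.3 in sham mice, with a wide spread in sham mice (log2 FC 0.19, SE 0.28, adjusted p = 0.622). Of the further NADPH oxidase genes, Nox4, a constitutively active catalytic subunit expressed in cardiac cells, was 6.31, 1.46, 1.703, 3.58 and 1.697 in nAAC mice and 0.313, 0.483, 0.409, 0.206 and 0.528 in sham mice. All nAAC values exceeded all sham values, and nAAC replicate 1 was the highest (log2 FC 1.38, SE 0.26, adjusted p = 0.00137). The cytosolic subunit Ncf1 had a log2 FC of 0.41 and did not pass, and Ncf4, another cytosolic subunit, was not tested, at means of 1.399 and 0.435 FPKM. Of 8 tested leukocyte markers 2 were higher, C1qa and C1qb, and the list summed to 143 to 287 FPKM in nAAC mice and 94.7 to 201 in sham mice. After median-ratio scaling C1qa alone stayed higher, and with Xist as a covariate neither passed. The untested leukocyte marker Fcgr1 was 0.892 to 1.81 FPKM in nAAC mice and 0.335 to 0.755 in sham mice, with no overlap. Itgam, also untested, was 0.501 to 1.98 FPKM in nAAC mice and 0.275 to 0.532 in sham mice, with overlap. Of 4 neutrophil markers Ly6g was at 0 in every library, while Csf3r, below the level for testing, was 0.264 to 0.733 FPKM in nAAC mice and 0.105 to 0.243 in sham mice, with no overlap. S100a8 and S100a9 had log2 FCs of 0.68 and 1.03 and did not pass (adjusted p = 0.241 and 0.0992). The part of these cells in the values of the oxidase subunits was not tested. Ucp2, a mitochondrial carrier that has been linked to lower superoxide formation, was 18.2, 12.99, 12.8, 21.8 and 17.2 in nAAC mice and 25.4, 16.2, 19.97, 18.8 and 27.05 in sham mice. The groups overlapped (log2 FC -0.36, SE 0.18, adjusted p = 0.135), and it passed on the lower side after median-ratio scaling (log2 FC -0.62).

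Ratios of 2 genes within a mouse do not depend on the scaling between libraries, apart from the added 1 FPKM. Of 8 pairs compared by two-sided exact permutation tests, 3 differed, each with p = 0.00794, the smallest that 5 against 5 mice allow, and an adjusted p of 0.0212 over the 8. The log2 ratio of Sod3 to Sod1 was -3.23 ± 0.659 in nAAC mice and -4.93 ± 0.457 in sham mice (SD, n = 5 each), a difference of 1.70 with all 5 nAAC mice above. The ratio of Mt2 to Mt1 was -1.55 ± 0.214 against -2.80 ± 0.245, so Mt2 differed by 1.25 more than its neighbour. The ratio of Gclm to Gclc was -0.0077 ± 0.152 against 0.51 ± 0.111, a difference of -0.52 with all 5 nAAC mice below. The mitochondrial to cytosolic ratio of the reductases, Txnrd2 to Txnrd1, differed by -0.52 (exact permutation p = 0.0556, adjusted p = 0.111) and did not pass. Its unadjusted p crossed 0.05 in only 3 of the 10 comparisons that left out 1 mouse. It was 0.0317 without nAAC replicate 3 or sham replicate 2 and 0.0476 without sham replicate 3, not adjusted over the 8 pairs. The remaining pairs, Txn2 to Txn1, Sod2 to Sod1, Prdx3 to Prdx1 and Cybb to Cyba, differed by -0.053, -0.10, -0.091 and -0.14, with an adjusted p of 0.754 each.

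**Figure D4:**
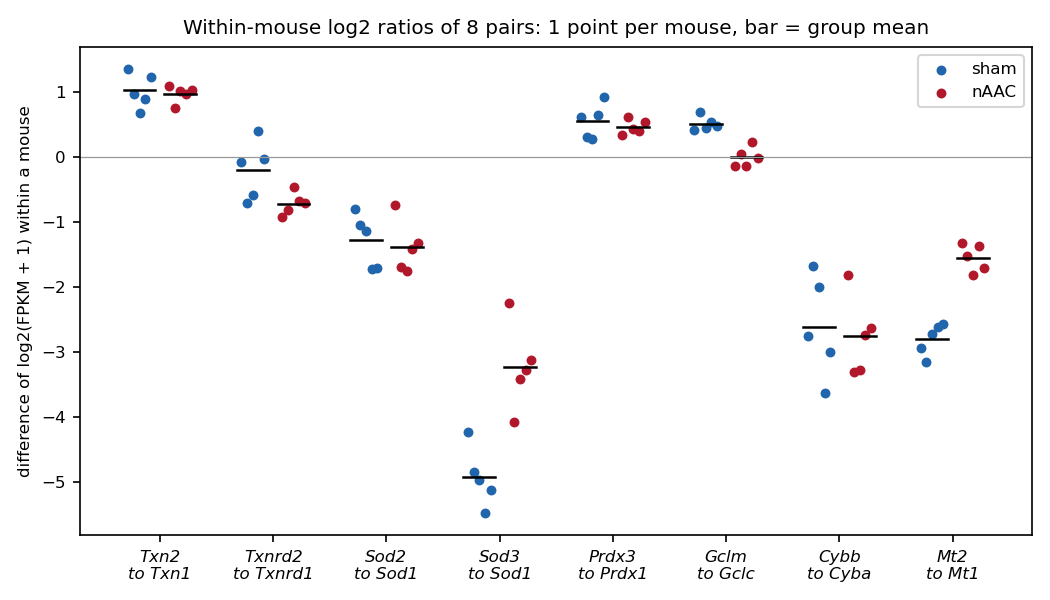
Difference of log2(FPKM + 1) between the 2 genes of each of 8 pairs within a mouse, with 1 point per mouse and a bar at the group mean. The groups separate fully for Sod3 to Sod1, Gclm to Gclc and Mt2 to Mt1, and overlap for the other 5 pairs.

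By location of the protein, a grouping made after the values were seen, 4 of the 5 secreted or endoplasmic reticulum members (Gpx3, Sod3, Gpx7, Gpx8 and Prdx4) were higher, all but Prdx4, with a median log2 FC of 0.93. Of 7 mitochondrial members (Sod2, Prdx3, Prdx5, Txn2, Txnrd2, Gstk1 and Ucp2) Gstk1 was lower and the other 6 did not pass, with a median of -0.33. Gpx1, Gpx4 and Gsr, which also act in mitochondria, were not counted among the 7, and Gpx1 and Gsr were higher. With median-ratio scaling, higher calls numbered 3 of the 5 and lower calls 4 of the 7. The shares of all tested genes were 27.1% higher and 4.6% lower as deposited, and 13.2% and 12.1% after that scaling. Because the groups were formed from these values, the counts cannot test a link to location. In FPKM as deposited, most fibroblast and mural markers were likewise higher in nAAC mice as a group. Of 7 fibroblast markers 5 were higher, and the list summed to 471 to 789.9 FPKM in nAAC mice and 378 to 402 in sham mice, with Pdgfra and Dpt not past the threshold. Dcn was the largest part of the sum, at 309 to 498 FPKM in nAAC mice and 288 to 304 in sham mice. Dcn and Lum passed in 3 and 2 of the 10 fits without 1 mouse. After median-ratio scaling 3 of the 7 were higher, Tcf21, Col1a1 and Col1a2. Of 5 mural markers 4 were higher, all but Rgs5, and the list summed to 193 to 289 FPKM in nAAC mice and 134 to 233 in sham mice. After median-ratio scaling 3 of the 5 were higher, as Pdgfrb no longer passed. The part of these cells in the values of Gpx3, Sod3 and Gpx8 was not tested. Of 8 cardiomyocyte markers Actc1 was higher and Tnni3, Pln and Atp2a2 lower, and their part in the values of the mitochondrial members was likewise not tested. After median-ratio scaling none of the 8 was higher, and Myh6, Tnni3, Pln and Atp2a2 were lower. Red cells are rich in Prdx2 and Cat, and none of 5 erythroid genes passed, with sums of 3396 to 8802 FPKM in nAAC mice and 2292 to 8661 in sham mice.

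Around the members, 105 further redox genes were listed, of which 78 were tested, 26 were higher (33.3%) and 10 lower (12.8%), beside 27.1% and 4.6% of all tested genes, and after median-ratio scaling 15 were higher and 19 lower. Of 16 NRF2 partners and targets 9 were higher and 1 lower, and 5 and 1 after median-ratio scaling or 5 and 0 with Xist as a covariate. With Xist 1593 of all 11867 tested genes were higher and 390 lower. Maff and Mafk, small MAF proteins that pair with NRF2 and with its competitor BACH1, were 8.06 ± 1.48 FPKM in nAAC mice and 2.05 ± 0.992 in sham mice (SD, n = 5 each) for Maff (log2 FC 1.62, adjusted p = 6.51e-05) and 20.1 ± 3.78 FPKM in nAAC mice and 7.28 ± 1.63 in sham mice (SD, n = 5 each) for Mafk (log2 FC 1.35, adjusted p = 4.07e-05). The microsomal epoxide hydrolase Ephx1 had a log2 FC of 1.08, the glutathione conjugate exporter Abcc1 one of 0.74, and all 4 also passed after median-ratio scaling. Nqo1, the quinone reductase often read as a measure of NRF2 activity, was 29.2 ± 3.43 FPKM in nAAC mice and 18.4 ± 4.82 in sham mice (SD, n = 5 each), with overlap between the groups (log2 FC 0.66, SE 0.16, adjusted p = 0.00747), and did not pass after median-ratio scaling (log2 FC 0.40, adjusted p = 0.0608). Cul3, the ubiquitin ligase scaffold that works with KEAP1, was the lower gene (log2 FC -0.34, adjusted p = 0.0362). It passed in only 2 of the 10 fits without 1 mouse, with log2 FCs of -0.38 to -0.29, and not with TPM (adjusted p = 0.237), with Xist (0.204), without mitochondrial genes (0.0702) or with the replicate block (0.0839), while after median-ratio scaling it did (log2 FC -0.61, adjusted p = 0.00411).

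Of 9 tested genes of NADPH supply 4 were higher, among them the pentose phosphate pathway enzymes Pgd, Tkt and G6pdx with log2 FCs of 0.69, 0.66 and 0.50, and after median-ratio scaling 3 were higher, these same enzymes, and 3 lower. Nadk2, the mitochondrial NAD kinase, was lower, at 7.42 ± 1.33 FPKM in nAAC mice and 17.8 ± 1.68 in sham mice (SD, n = 5 each) with no overlap (log2 FC -1.17, SE 0.13, adjusted p = 2.22e-05). Of 18 further glutathione genes 3 were higher and 3 lower, led by Gsta3 (0.92), the glyoxalase Hagh (0.73), Gstm7 (-0.68) and Gsto1 (0.67). After median-ratio scaling 2 of these 18, Gsta3 and Hagh, were higher and 7 lower, and with length and GC trends removed 3 and 8. With those trends removed 1815 of all 11860 genes in the fit were higher and 1733 lower. Of 16 thiol repair genes 4 were higher and 2 lower, and after median-ratio scaling 1 was higher, Txndc5, and 5 lower. The disulfide isomerase Txndc5 of the endoplasmic reticulum was 24.04 ± 2.92 FPKM in nAAC mice and 9.84 ± 1.19 in sham mice (SD, n = 5 each) (log2 FC 1.21, SE 0.12, adjusted p = 1.03e-05), Park7 and the methionine sulfoxide reductase Msra had log2 FCs of 0.75 and 0.68 but did not pass after that scaling (0.47 and 0.42, adjusted p = 0.146 and 0.0536), and the mitochondrial methionine sulfoxide reductase Msrb2 was lower (-0.65). Park7 passed in 3 of the 10 fits without 1 mouse.

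Of 5 tested NADPH oxidase genes outside the members, Nox4 and the leukocyte GTPase Rac2 (log2 FC 0.57) were higher. Of 10 other oxidant sources 3 were higher and 2 lower. The monoamine oxidases, mitochondrial enzymes that release hydrogen peroxide, moved in opposite directions. Maob was 2.08 ± 0.539 FPKM in nAAC mice and 10.1 ± 1.996 in sham mice (SD, n = 5 each) (log2 FC -1.84, SE 0.15, adjusted p = 2.17e-06), and Maoa was 2.13 ± 0.508 FPKM in nAAC mice and 0.826 ± 0.156 in sham mice (SD, n = 5 each) (log2 FC 0.77, SE 0.13, adjusted p = 0.000576). Lox, which crosslinks collagen and releases peroxide, had a log2 FC of 1.44, with a wide spread in nAAC mice (8.203 ± 6.82 FPKM, SD, n = 5). Shc1 had a log2 FC of 0.53 and did not pass after median-ratio scaling (0.27). Of 4 tested genes of metal handling and uncoupling, the mitochondrial carrier Ucp3 was lower, at 3.92 ± 5.07 FPKM in nAAC mice and 17.4 ± 9.95 in sham mice (SD, n = 5 each) with overlap (log2 FC -2.17, SE 0.50, adjusted p = 0.00516), and the zinc importer Slc39a14 higher (log2 FC 0.44), the latter not after median-ratio scaling (0.19). Mtf1, the factor that binds metal response elements, and the zinc exporter Slc30a1 did not pass, at log2 FCs of 0.27 and 0.059.

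**Figure D5:**
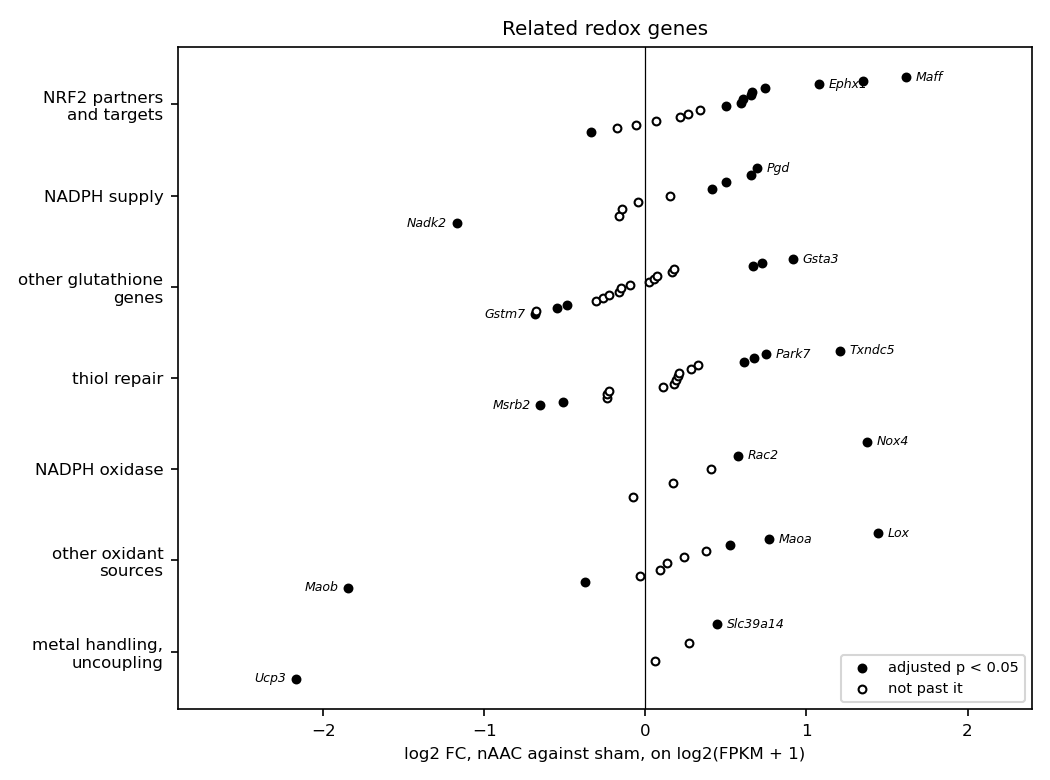
The log2 FC, nAAC against sham mice, on log2(FPKM + 1) for the 78 tested related redox genes in 7 lists, with filled points past an adjusted p of 0.05 and names beside some of the largest. Filled points lie on both sides of 0, from Ucp3 at -2.17 to Maff at 1.62.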

How the data were processed

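The members and the lists of related and marker genes were chosen with earlier results of these data known. Per the labels, each mouse gave 1 library from Trizol-extracted total RNA, and genome build mm10 is named in the submitters' processing notes. The aligner, quantifier, differential test and use of strand are not given in the sources used here. The authors deposited per gene an FPKM, a TPM (FPKM rescaled to a fixed sum) and a coverage signal (mean reads per base). Rows sharing a gene ID were summed. Coverage served only to estimate depth, through the modal quotient of FPKM and coverage, shared by 15.0% to 16.5% of genes with an FPKM above 1, so read counts and counting errors are unknown.

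The 11867 genes averaging 1 FPKM or more entered limma (version 3.58.1, R 4.3.3), fitted to log2(FPKM + 1) with a mean-variance trend and Benjamini-Hochberg adjustment over all of them. A log2 FC on this scale understates changes of low genes. Every adjusted p of a single gene is from this test. Passing meant an adjusted p below 0.05, and DEGs also had an absolute log2 FC above 1. Within-mouse log2 ratios were compared by two-sided exact permutation tests (scipy 1.17.1). The p-values measure the spread between these mice, and the litters they came from are not stated in the labels. Every member was named, and of each related list up to 4 passing genes with the largest absolute log2 FC, plus genes a member result turns on, except for items that are not reported here. Mafg, Nadk and other passing genes were counted only. Nnt was left out because 2 gene IDs carry its name. The marker lists not described above gave 1 of 6 endothelial genes (Kdr) higher, 0 of 3 atrial genes, 0 of 2 neutrophil genes, and the only tested adipocyte gene, Cidea, higher. Neither Kdr nor Cidea passed after median-ratio scaling (adjusted p = 0.178 and 0.0550). Of the untested adipocyte genes, Adipoq was 0 in every nAAC mouse and 0.0786 to 0.308 FPKM in sham mice. Plin1 and Cfd had means of 0.0343 and 0.0978 FPKM in nAAC mice and 0.136 and 0.876 in sham mice. Ucp1 was at most 0.041 FPKM in any mouse. Alternatives used median-ratio scaling, upper-quartile scaling, TPM, FPKM rescaled without mitochondrial genes, no filter, a pseudocount of 0.1, a replicate block, Xist as a covariate, removal of length and GC trends, stricter thresholds and leaving out each mouse. The labels state no pairing of the mice, and the replicate numbers were not taken as one. The limma fit was tested on simulated data with independent normal noise per gene. The simulation held no length trend in a library, no overall shift between groups and no Xist difference, so it does not bear on those features. Sequences are from RefSeq (GRCm38.p6), and 33 of 39 members matched a promoter. Figures were drawn with matplotlib 3.10.9.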

Additional observations from a re-analysis of the deposited data

Results flagged for a closer look

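In 6 of 80 groups of 5 values the distance between the outermost mouse and its neighbour, relative to the group's range, exceeded Dixon's critical value of 0.71, where chance gives about 4. The values were log2(FPKM + 1) of single genes and measures of the libraries. Sham replicate 4 accounted for 3 of them, as the lowest sham mouse in Gclm (ratio 0.913) and the highest in Gpx7 (0.719) and Sod2 (0.780). The log2 FC without this mouse was -0.11 for Gclm, 0.58 for Gpx7 and -0.22 for Sod2, against -0.045, 0.48 and -0.33 with it. nAAC replicate 1 was the lowest nAAC mouse in Gstp1 (ratio 0.728) and had the highest estimated depth of its group, at 6.82 gigabases (0.796). nAAC replicate 2 was the lowest of its group in Sod3 (0.769), at 10.7 FPKM, still above every sham mouse. No cause was tested for these values.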

How the results depend on the processing

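None of the 15 passing members changed sign in any of the fits run, and 10 passed in each. Hmox1, Gclc and Gpx7 no longer passed under median-ratio or upper-quartile scaling, with Xist as a covariate or with length and GC trends removed, Gss under median-ratio scaling and Xist, and Gsr in 10 of 20 fits. The count of higher members, 13, was 8 after median-ratio scaling, 8 with Xist, 8 at an adjusted p below 0.01 and 4 as DEGs. That of lower members, 2, was 7 after median-ratio scaling, 9 after upper-quartile scaling, 4 with FPKM rescaled without mitochondrial genes and 8 with trends removed. The counts over all genes moved as well. Of 11867 tested genes, 3211 were higher as deposited, 1563 after median-ratio scaling and 1593 with Xist. Lower were 546 as deposited, 1431 after median-ratio scaling, 1359 after upper-quartile scaling and 602 without mitochondrial genes. With TPM 344 were lower, and with trends removed 1733 of 11860. For related genes 26 higher became 15, 14 and 6 with median-ratio scaling, Xist and DEG thresholds, and 10 lower became 19 with median-ratio scaling, 19 with upper-quartile scaling, 19 with trends removed, 5 with TPM, 5 at an adjusted p below 0.01 and 3 as DEGs. The strict and DEG counts fall by construction, and for the rest the cause was not tested. With the replicate block 12 members were higher and 2 lower, and 26 and 9 related genes, with Gsr lost (adjusted p = 0.0575). Over all tested genes 2929 were higher and 497 lower in that fit. Same-numbered mice correlated between -0.32 and 0.19 and no nAAC mouse matched the sham mouse of its own number best, so the numbers were taken as names only. With 5 numbers this check is too small to decide whether same-numbered mice shared a litter or batch.

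All reversed log2 FCs belong to members that did not pass. Median-ratio scaling gave Nfe2l2 -0.025, Gstm2 -0.17, Txn1 -0.089, Txn2 -0.15, Txnrd2 -0.043, Prdx4 -0.13, Prdx6 -0.11, Cat -0.21, Cybb -0.14 and Cyba -0.071, and upper-quartile scaling Nfe2l2 -0.012, Gstm2 -0.16, Txn1 -0.076, Txn2 -0.13, Txnrd2 -0.030, Prdx4 -0.12, Prdx6 -0.10, Cat -0.19, Cybb -0.13 and Cyba -0.058. Removing trends gave Keap1 -0.095, Gstm2 -0.10, Txn2 -0.15, Txnrd2 -0.13, Prdx6 -0.042, Cat -0.13, Cybb -0.056 and Cyba -0.13. TPM gave Gclm 0.10, Gstm1 0.0054, Prdx2 0.17 and Prdx5 0.15, and Xist Gstm2 -0.10, Prdx4 -0.0062, Cybb -0.18 and Cyba -0.14. Without sham replicate 4 and nAAC replicate 1 together, chosen after seeing the data, there were Gstm1 0.032, Gstp1 0.056, Prdx2 0.18, Prdx5 0.31, Sod1 0.22 and Cybb -0.071. Leaving out 1 mouse at a time turned the sign within these ranges of log2 values: Cybb -0.063 to 0.19, Gclm -0.14 to 0.035, Gstm2 -0.017 to 0.27, Prdx2 -0.12 to 0.15, Prdx5 -0.16 to 0.22, Sod1 -0.39 to 0.0036, the ratio Cybb to Cyba -0.39 to 0.091, the ratio Sod2 to Sod1 -0.26 to 0.020, the ratio Txn2 to Txn1 -0.14 to 0.029. The ratio of Txnrd2 to Txnrd1 ran from -0.64 to -0.37, and the counts of passing members from 12 to 14 higher and 2 lower. Over all tested genes the fits without 1 mouse gave 2392 to 3930 higher and 426 to 621 lower. For genes near 1 FPKM, such as Cybb, the level limits what can be detected.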
